A study of Homo sapiens with 12 samples.

Results

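Interferon beta was given to NCI-H1944 cells, which derive from a human lung adenocarcinoma and in which IFNAR1, a chain of the type I interferon receptor, had been targeted by knockout. The comparison covers 4 of the 12 libraries of the series: 2 libraries of IFNAR1sg cells given interferon beta and 2 libraries of IFNAR1sg cells given the solvent DMSO alone. All libraries hold RNA recovered with J2, an antibody against double-stranded RNA. Both IFNAR1sg groups had 48 h in DMSO, a washout and 24 h of further culture, and the treated group had interferon beta at 5 ng/ml during those 24 h. The matching wild-type cells, labelled SCR, had the same 2 treatments with 2 libraries each and are used for comparison. Libraries of both genotypes given BAY-1217389, an MPS1 kinase inhibitor (100 nM, 48 h), entered the fit only through the shared estimate of spread. The labels do not state whether the IFNAR1sg cells are a clone or a pool, or whether the 2 libraries of a group came from separate cultures, so p-values measure the spread between these libraries, which may be technical.

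Type I interferons bind a receptor made of IFNAR1 and IFNAR2. The kinases TYK2 and JAK1, which are bound to these chains, phosphorylate factors such as STAT2, which joins IRF9 in a complex that enters the nucleus. The complex binds GAAA-rich elements upstream of interferon-stimulated genes, whose products include antiviral enzymes, sensors of foreign RNA and parts of the antigen presentation machinery. Several of these products (RIG-I, MDA5, PKR and the OAS enzymes) bind double-stranded RNA, the molecule that the J2 antibody collects.

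Such elements are shown here for genes that were higher with interferon beta in IFNAR1sg cells, because the motif was more frequent in their promoters than in all promoters, as counted below. The motif, GAAA followed by any 2 bases and GAAA, was searched on both strands of the RefSeq promoters (GRCh38.p14; 250 bases before to 50 bases after a gene's start). Each line is 30 bases, 5′ to 3′ on the gene's strand, with the match in capitals. A match on the opposite strand reads TTTC, any 2 bases and TTTC. Not every match lies upstream of the start. The MX1 match begins past it, and those of EIF2AK2 and DTX3L begin 6 bases before it and run across it.
IFI6, chr1:27672329-27672358, minus strand: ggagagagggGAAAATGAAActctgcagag
IFI6, chr1:27672288-27672317, minus strand: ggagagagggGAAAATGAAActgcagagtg
IFI6, chr1:27672266-27672295, minus strand: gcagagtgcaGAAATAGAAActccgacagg
MX1, chr21:41420559-41420588, plus strand: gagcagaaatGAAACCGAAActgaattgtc
IFIT1, chr10:89392497-89392526, plus strand: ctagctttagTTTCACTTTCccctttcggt
IFIT1, chr10:89392510-89392539, plus strand: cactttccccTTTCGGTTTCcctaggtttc
TRIM14, chr9:98119229-98119258, minus strand: acggccgaggTTTCGGTTTCccttgggagc
EIF2AK2, chr2:37156967-37156996, minus strand: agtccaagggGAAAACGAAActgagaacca
DDX60L, chr4:168480523-168480552, minus strand: gtggagaaaaGAAACCGAAActaactccct
DTX3L, chr3:122564322-122564351, plus strand: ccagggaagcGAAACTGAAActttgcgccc
PARP9, chr3:122564322-122564351, minus strand: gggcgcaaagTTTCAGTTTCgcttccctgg

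DTX3L and PARP9 are neighbours read in opposite directions, and the same 30 bases serve in both of their promoters. Of the 22 genes named below for the smallest p among those that rose, 17 had a promoter in the table and 14 of these 17 held the motif. RIGI, IFI16 and CMPK2 held none in their 300 bases. A gene counted here if any of its promoters held the motif, and in this way 1195 of 27305 RefSeq genes did (4.38%). Over all single RefSeq promoters the motif was in 1255 of 35116 (3.57%).

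The unit of the deposited table is the read count of a stranded genomic region, and the gene-level values here are sums of such counts. An intronic sum adds the regions of a gene that share no base with an exon, and an exon-sharing sum adds the regions that touch an exon of 1 gene. Of the reads in exon-sharing regions 91.7% lay in regions that share at most 2 bases with the exon, so reads crossing the exon's edge may be counted there, spliced or not. Levels are in CPM, the reads of a feature divided by those of all tested regions in the library, after TMM scaling, and brought to one common library size. Changes are log2 values from edgeR's quasi-likelihood test. The ± value is an SE derived from that test, the size of the change over the square root of its F. At low counts it can come out too small, as for the genotype difference of intronic OAS2 (0.01 with 0.16, beside 0.44 and 0.34 for the 2 changes compared). A gene rose or fell where the Benjamini-Hochberg adjusted p was under 0.05 over all features of its kind.

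The 12 libraries held 3739443 to 7430687 counts. The 4 IFNAR1sg libraries compared here held 5076497 and 7098123 (DMSO) and 7430687 and 6783514 (interferon beta). Exon-sharing regions took 35.55% and 35.06% of reads in the DMSO libraries and 38.05% and 36.55% with interferon beta, against a move from 35.28% and 33.54% to 49.63% and 47.95% in SCR cells. Of 14 lung epithelial markers, KRT8 had 67707 reads, KRT18 915, CDH1 824, KRT7 513 and EPCAM 103 over the 4 libraries, while KRT19, NKX2-1, SFTPB and SFTPC had 0. Of 12 immune markers, NCAM1 had 69 reads, CD68 34, CD8A 11, CD14 10 and CD4 9, while PTPRC had 1 and CD3E 1. Of 10 fibroblast markers, FAP had 50 reads and ACTA2 43, while COL1A1, COL1A2 and DCN had 0.

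The targeted gene was read first. IFNAR1 had 1 tested exon-sharing region, chr21:33343676-33344099 on the plus strand, in intron 5 and touching an exon by 1 base. It stood at 3.33 and 2.07 CPM in DMSO and 2.84 and 1.87 CPM with interferon beta in IFNAR1sg cells, and between 11.5 and 11.7 CPM in the 4 SCR libraries. The 4 IFNAR1sg libraries were thus all below the 4 SCR libraries, and in DMSO the difference was -2.13 ± 0.37 (adjusted p = 0.0018). Intronic reads of IFNAR1 did not separate the genotypes in DMSO, with 24 and 33 reads in IFNAR1sg cells and 34 and 33 in SCR cells. Neither readout shows how much receptor protein was left. IFNB1 had 0 reads in all libraries, and CXCL10 had 0 in the IFNAR1sg libraries.

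A reduced response to interferon beta was present in IFNAR1sg cells. Exon-sharing sums rose for 197 of 6036 genes (3.26%) and fell for 33 (0.547%). Intronic sums rose for 93 of 14348 genes (0.648%) and fell for 93 (0.648%). In single regions 489 of 89111 rose (0.549%) and 117 fell (0.131%). In SCR cells the same treatment raised 3123 exon-sharing sums (51.7%) and 1149 intronic sums (8.01%), and lowered 310 (5.14%) and 5643 (39.3%). The median change over all genes in IFNAR1sg cells was 0.13 for exon-sharing sums and -0.06 for intronic sums, against 0.74 and -0.59 in SCR cells.

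These totals depended on single libraries and on scaling more than the interferon genes did. Without the second IFNAR1sg DMSO library 55 intronic sums rose and 23 fell, without the first IFNAR1sg interferon beta library 22 fell, and without the first DMSO library 58 fell. For exon-sharing sums the same 3 omissions gave 102, 70 and 125 rises and 8, 6 and 16 falls. For regions, omitting the second DMSO library gave 229 rises and 28 falls, omitting the first interferon beta library gave 180 and 18, and omitting the first DMSO library gave 45 falls. Without TMM factors the rises and falls were 360 and 183 (regions), 73 and 190 (intronic sums) and 140 and 57 (exon-sharing sums), with DESeq2's size factors 423 and 137 regions, and with factors computed from the sums themselves 128 and 78 (intronic) and 92 and 87 (exon-sharing).

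Interferon-stimulated genes rose. The list was chosen with earlier results of these data known, so its counts only describe these genes. Of 78 listed genes, 70 were measured by intronic sums, and 43 of these rose and 0 fell, with 67 positive and a median of 1.05. By exon-sharing sums 45 were measured, 31 rose and 0 fell, with 43 positive and a median of 1.34. Over all alternatives the count of risen members lay between 33 and 49 for intronic sums and between 27 and 33 for exon-sharing sums. In SCR cells 68 and 43 of the same genes rose, with medians of 2.99 and 3.71. Before treatment no gene of this list differed between the genotypes by the test, and the median difference was 0.12 for intronic and 0.02 for exon-sharing sums. Over all genes the DMSO groups differed in 5 intronic sums above (0.0348%) and 5 below SCR (0.0348%), and in 5 (0.0828%) and 6 (0.0994%) exon-sharing sums. In bulk samples, fewer responding cells and less RNA per cell cannot be told apart.

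**Figure D1:**
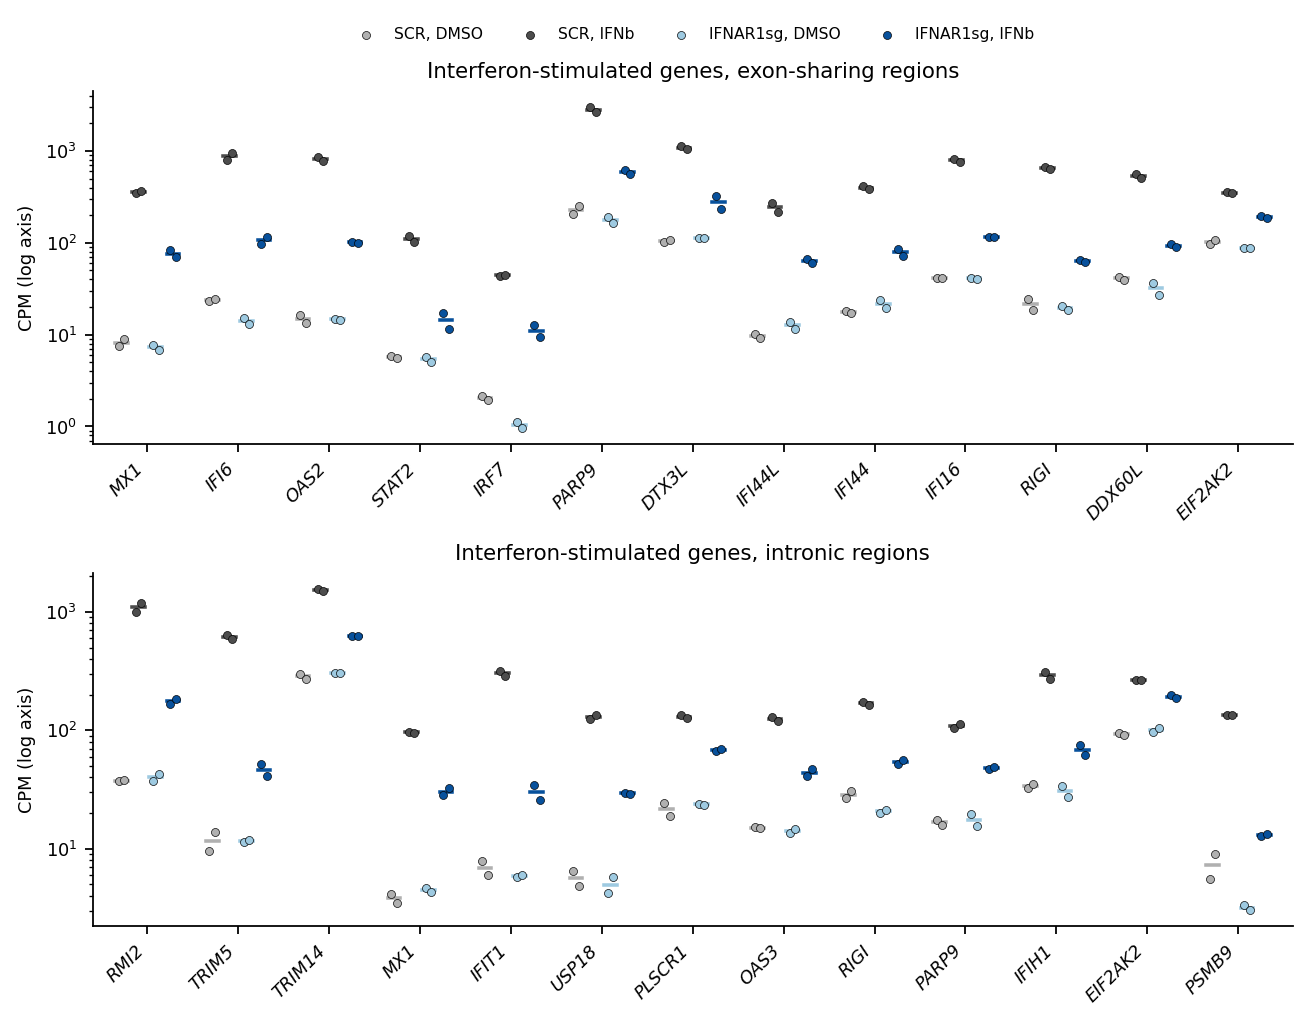
Levels of interferon-stimulated genes in CPM (log axis) in each of the 8 DMSO and interferon beta libraries, by exon-sharing regions (top) and intronic regions (bottom). Points are libraries and bars are the mean of 2. For each gene shown, both IFNAR1sg libraries with interferon beta lie above both IFNAR1sg DMSO libraries and below both SCR libraries with interferon beta, as for MX1 (82.7 and 69.8 CPM against 7.78 and 6.85, and 353 and 363 in SCR).

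Among the transcription factors of the pathway, STAT2 and IRF7 rose, and the kinases did not pass the test. STAT2, a part of the complex that carries the interferon signal to the nucleus, went from 5.78 and 5.10 to 17.1 and 11.6 CPM in exon-sharing reads (1.41 ± 0.25, adjusted p = 0.0005). This call rested on the first treated library, since without it the change was 1.12 with adjusted p = 0.0527. IRF7, a transcription factor that amplifies interferon production, went from 1.11 and 0.956 to 12.8 and 9.34 CPM (3.41 ± 0.38, adjusted p = 4.64e-08). The rise of IRF7 in SCR cells, 4.41, was larger by 1.0 ± 0.60, which did not pass the test (adjusted p = 0.205). Intronic reads of IRF7, at under 3 CPM in each IFNAR1sg library, changed by 1.67 ± 0.70 (adjusted p = 0.337) and by 6.59 in SCR cells, and this difference of 4.92 ± 1.33 passed (adjusted p = 0.00168). The intronic change of STAT2, 0.93 ± 0.60, did not pass (adjusted p = 0.665).

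USP18 encodes an ISG15 protease that also restrains receptor signalling. Its intronic reads went from 4.22 and 5.73 to 29.8 and 29.2 CPM (2.53 ± 0.22), so the treated libraries were well apart from the controls. In its exon-sharing reads the change of 1.65 ± 0.43 passed the test with all libraries, but not without the first DMSO library (1.18) or the first treated library (1.61). The measured receptors and kinases of the list and the transcription factor STAT3 did not pass. JAK1 intronic reads changed by -0.07 ± 0.19, JAK2 by -0.25 ± 0.21, TYK2 by -0.61 ± 0.40, IFNGR1 by -0.18 ± 0.22, IFNGR2 by -0.34 ± 0.17, IFNLR1 by 0.15 ± 0.34 and STAT3 by -0.02 ± 0.13. In all, 2 of 17 measured members rose by intronic sums and 4 of 10 by exon-sharing sums, and none fell.

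Antiviral effectors rose severalfold. MX1, a dynamin-like GTPase that blocks viral replication (chr21:41420304-41459214, plus strand), had exon-sharing reads of 7.78 and 6.85 CPM in DMSO and 82.7 and 69.8 CPM with interferon beta. The treated levels did not overlap the controls, and the change was 3.39 ± 0.19 (adjusted p = 1.34e-15). In SCR cells MX1 went from 7.50 and 8.91 to 353 and 363 CPM, a change of 5.45, which exceeded that in IFNAR1sg cells by 2.06 ± 0.29 (adjusted p = 1.63e-06). IFI6, a small mitochondrial and endoplasmic reticulum protein (chr1:27666061-27672218, minus strand), went from 15.1 and 13.1 to 98.1 and 116 CPM (2.94 ± 0.17), and the SCR change of 5.21 was larger by 2.27. IFIT1, which binds foreign RNA by its 5′ end, had intronic reads of 5.78 and 6.05 CPM in DMSO and 34.4 and 25.8 CPM with treatment (2.34 ± 0.20), against 320 and 288 CPM in treated SCR cells. MX2 had 3 intronic reads over both DMSO libraries and 89 over both treated ones, a ratio of 26.2 with a 95% counting interval of 8.67 to 129.

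RMI2 and genes of the TRIM family rose in intronic reads. RMI2, part of the complex that dissolves DNA crossovers (chr16:11249619-11381662, plus strand), had the smallest p among intronic sums, at 37.3 and 43.2 CPM in DMSO and 168 and 184 CPM with interferon beta. Its change was 2.12 ± 0.11 (adjusted p = 1.18e-36), and in SCR cells, where it reached 997 and 1200 CPM, the change was 4.87. TRIM5, a restriction factor against retroviral capsids, rose from 11.3 and 11.8 to 52.3 and 41.1 CPM (2.01 ± 0.16), and its SCR change of 5.73 was larger by 3.72. TRIM14, an adaptor in antiviral signalling, went from 305 and 305 to 626 and 630 CPM (1.04 ± 0.08), with both treated libraries at nearly the same level. PLSCR1, a phospholipid scramblase with antiviral activity, went from 23.8 and 23.6 to 66.8 and 69.0 CPM (1.52 ± 0.14).

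PARP9 and DTX3L, a complex that modifies histones and host proteins, both rose, and they share the promoter stretch printed above. PARP9 exon-sharing reads went from 193 and 165 to 627 and 559 CPM (1.73 ± 0.13), and those of DTX3L from 112 and 113 to 326 and 235 CPM (1.32 ± 0.13). CMPK2, a mitochondrial nucleotide kinase, had intronic reads of 2.22 and 2.87 CPM in DMSO and 13.9 and 11.4 CPM with treatment (2.28 ± 0.29). LIPA, a lysosomal lipase whose gene lies on the strand opposite IFIT1, rose from 18.7 and 18.2 to 29.7 and 32.8 CPM (0.76 ± 0.16), against 268 and 310 CPM in treated SCR cells. GBP1P1, a guanylate-binding pseudogene, rose by 2.93 ± 0.52 from 0.889 and 0.319 CPM, and without the second DMSO library its change of 2.32 did not pass (adjusted p = 0.0556). Its reads may be shared with its functional relatives.

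The sensors of double-stranded RNA rose as well. RIGI, which recognises short double-stranded RNA with a 5′ triphosphate, had exon-sharing reads of 20.7 and 18.6 CPM in DMSO and 64.6 and 62.5 CPM with interferon beta (1.70 ± 0.15). IFIH1 (MDA5), which recognises long double-stranded RNA, had intronic reads of 34.0 and 27.4 and then 75.8 and 61.7 CPM (1.18 ± 0.13). EIF2AK2 (PKR), the kinase that halts translation, went from 97.6 and 104 to 198 and 186 CPM (0.93 ± 0.11), and its SCR change of 1.51 was larger by only 0.59. The treated libraries were above the controls for all 3 genes. In OAS2, one of the enzymes that activate RNase L, exon-sharing reads went from 14.9 and 14.5 to 103 and 99.7 CPM (2.79 ± 0.16). Its intronic sums had only 4 and 2 reads in DMSO and 75 and 60 with interferon beta (4.24 ± 0.44). The intronic change in SCR cells was 4.25, and edgeR's test of the difference did not pass (adjusted p = 0.983). OAS3 intronic reads went from 13.6 and 14.8 to 41.1 and 46.9 CPM (1.62 ± 0.17). ADAR, which edits adenosine in double-stranded RNA, rose in exon-sharing reads from 65.6 and 57.3 to 108 and 95.1 CPM (0.73 ± 0.14), while its intronic reads changed by 0.26 ± 0.15 (adjusted p = 0.621). Of the list of RNA sensing and processing genes 8 of 27 rose by intronic sums and 7 of 20 by exon-sharing sums, with 0 falls, and 6 of its genes also stand on the interferon list.

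Few other genes of the DNA sensing and antigen presentation lists moved. IFI16, a nuclear DNA sensor, rose from 41.4 and 40.6 to 117 and 117 CPM in exon-sharing reads (1.51 ± 0.13), and SAMHD1, a nucleotide hydrolase, rose by 1.34 ± 0.20. CGAS intronic reads changed by 0.27 ± 0.12 and did not pass. PSMB9, a subunit of the immunoproteasome, had intronic reads of 3.33 and 3.03 CPM in DMSO and 12.8 and 13.4 CPM with interferon beta (2.04 ± 0.28). HLA-C, a class I molecule with near-identical relatives that may share its reads, went from 3.11 and 2.87 to 9.95 and 12.6 CPM (1.91 ± 0.33), and the peptide-trimming enzyme ERAP2 from 1.56 and 1.59 to 6.63 and 6.12 CPM (2.0 ± 0.40). NLRC5, the transactivator of class I genes, rose by 0.58 ± 0.16 (adjusted p = 0.0443) and did not pass without the first DMSO library (0.62), the second DMSO library (0.59) or the first treated library (0.53). CANX, a chaperone of class I folding, fell from 1330 and 1280 to 992 and 953 CPM (-0.42 ± 0.11), and this call was lost on omission of any of the 4 IFNAR1sg libraries. DNA sensing genes rose in 2 of 9 intronic and 3 of 7 exon-sharing sums, and antigen presentation genes in 2 of 14 and 2 of 11. Over all genes 0.648% of intronic and 3.26% of exon-sharing sums rose. Of the DNA sensing rises, IFI16 and SAMHD1 also stand on the interferon list. BANF1 rose in exon-sharing sums only, and it did not pass without the first DMSO library (0.93) or the first treated library (0.89).

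**Figure D2:**
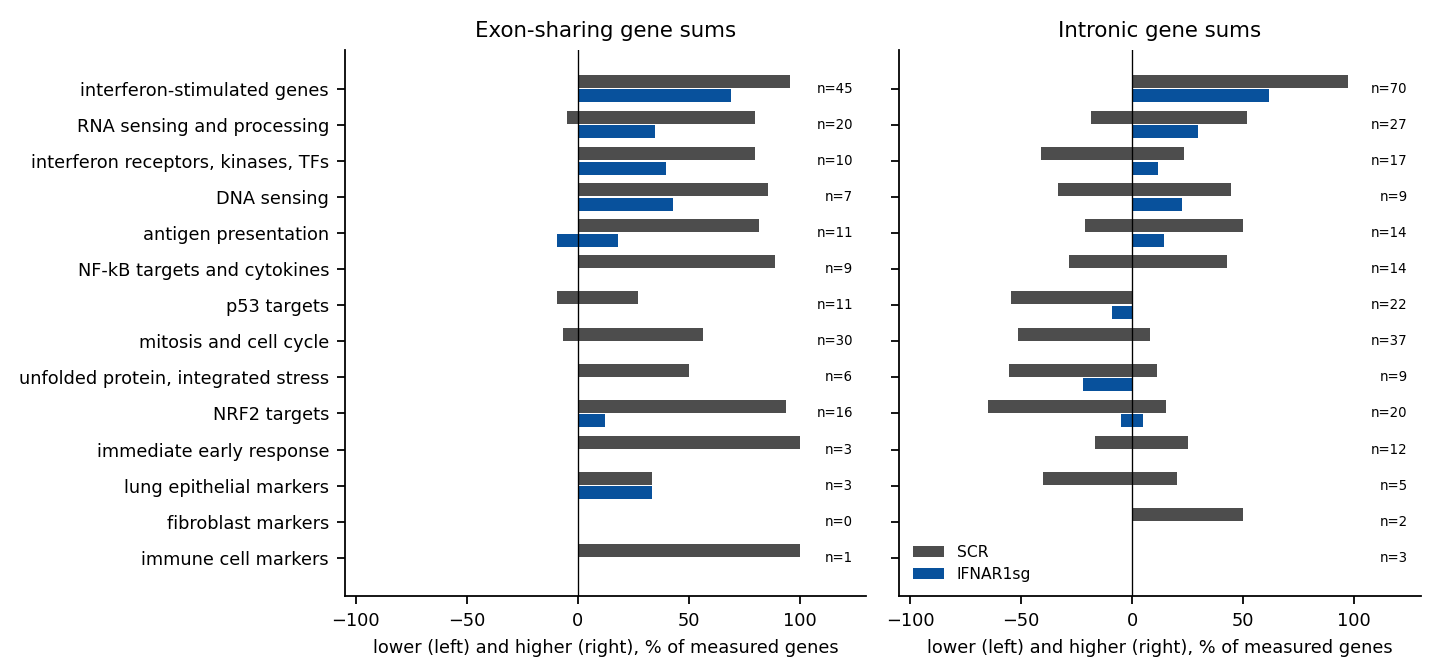
Share of measured genes of each list that rose (right of 0) or fell (left of 0) with interferon beta, for SCR (grey) and IFNAR1sg cells (blue), in exon-sharing sums (left) and intronic sums (right), with n the number measured. In IFNAR1sg cells the interferon-stimulated genes have the longest bars among lists of 5 or more measured genes, 31 of 45 and 43 of 70.

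Lists of other pathways had few or no calls in IFNAR1sg cells. No gene of NF-kB signalling (14 intronic and 9 exon-sharing sums), of mitosis and cell cycle (37 and 30) or of the immediate early response (12 and 3) passed the test. Of 22 p53 targets 2 fell by intronic sums, SESN2 (-1.18 ± 0.27) and the death receptor TNFRSF10B (-0.41 ± 0.11), and 0 rose. TNFRSF10B lost its call on omission of any 1 of the 4 IFNAR1sg libraries, and SESN2 without the first DMSO (-1.05) or either treated library (-1.23 and -1.08). Among NRF2 targets the aldo-keto reductase AKR1B10 rose by 0.53 ± 0.11 and PTGR1 fell by 0.30 on the log2 scale in 20 intronic sums, and AKR1B10 and AKR1C1 rose in 16 exon-sharing sums. PTGR1 did not pass on omission of any 1 of the 4 libraries, AKR1B10 did not pass without the second DMSO library (0.44, intronic) or the first treated library (0.49, exon-sharing). AKR1C1 (0.38 ± 0.11) did not pass without the second DMSO library (0.36, adjusted p = 0.164), without the first treated library (0.39, adjusted p = 0.11), without TMM factors (0.30, adjusted p = 0.0852) or by DESeq2's Wald test (0.34, adjusted p = 0.0916). Of the epithelial markers KRT8 rose in exon-sharing reads, from 2260 and 2310 to 3780 and 3120 CPM (0.59 ± 0.11), beside a median of 0.13 over all genes of that kind. The summed level of the epithelial list was 2400 and 2450 CPM in DMSO and 3920 and 3260 CPM with treatment, that of the fibroblast list 3.33 and 3.35 and then 4.58 and 5.61 CPM, and that of the immune list 3.11 and 7.33 and then 7.26 and 5.78 CPM. The part of these levels in the results was not tested.

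The response left in IFNAR1sg cells was set against that of SCR cells, which share no library with it. Of the 93 intronic sums that rose in IFNAR1sg cells, 81 (87.1%) also rose in SCR cells. That is 7.05% of the 1149 that rose there, which were 8.01% of all tested. Of the 197 exon-sharing sums, 192 (97.5%) also rose in SCR cells, 6.15% of 3123 (51.7% of all tested). Among the shared rises the difference between genotypes was called larger in SCR cells for 59 of 81 intronic and 116 of 192 exon-sharing sums, and larger in IFNAR1sg cells for 0 of either. Over all genes the difference was called in 616 intronic sums in the direction of SCR (4.29%) and in 4153 against it (28.9%), in 1792 (29.7%) and 147 (2.44%) exon-sharing sums, and in 4553 (5.11%) and 6294 (7.06%) regions. Of the interferon-stimulated genes 54 of 70 intronic and 35 of 45 exon-sharing sums changed more upwards in SCR cells, and 1, the intronic sum of ZC3HAV1, a CpG-binding antiviral protein, by less (-0.50).

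**Figure D3:**
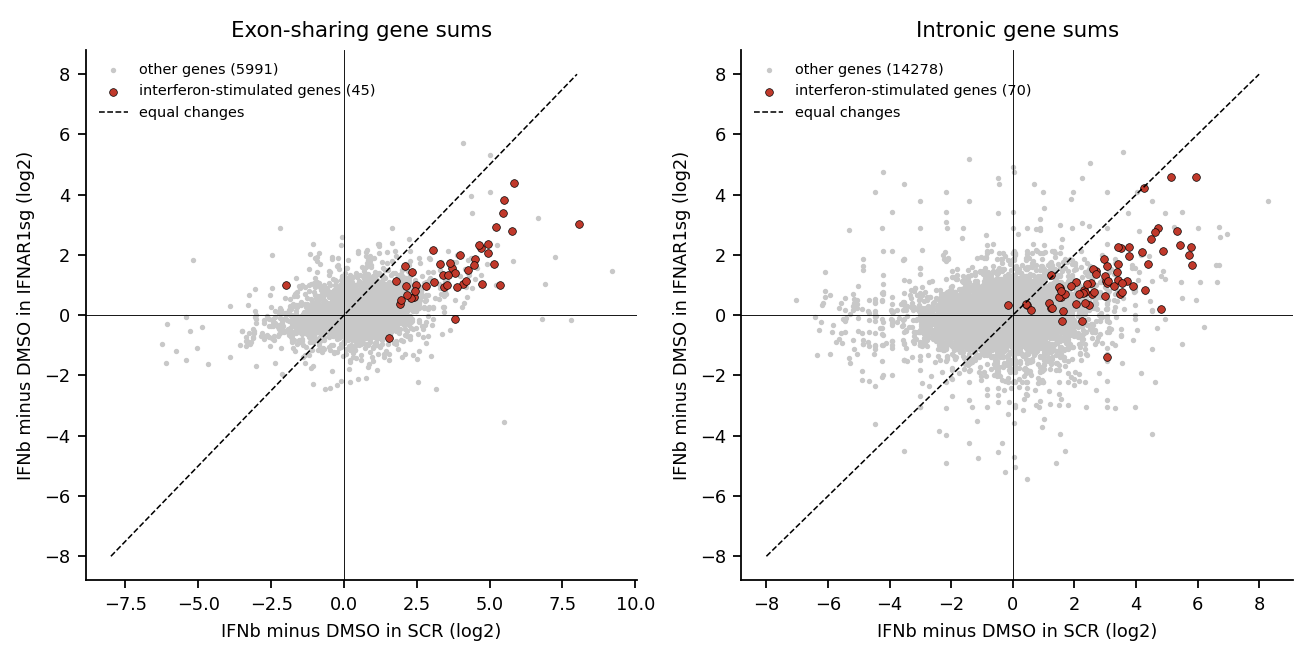
Change with interferon beta (log2) in IFNAR1sg cells (vertical) against SCR cells (horizontal) for exon-sharing sums (left, 6036 genes) and intronic sums (right, 14348 genes). Interferon-stimulated genes (red, 45 and 70) lie mostly above 0 on both axes and below the dashed line of equal changes, with medians of 1.34 against 3.71 and 1.05 against 2.99.

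The size of the response in IFNAR1sg cells followed the size of the response in SCR cells. Intronic sums that rose by 0 to 1 in SCR cells (429 genes) had a median change of 0.11 in IFNAR1sg cells, and those that rose by more than 4 (51 genes) had one of 1.71. Between these limits the medians were 0.21, 0.39 and 0.78. The share of genes called higher in IFNAR1sg cells climbed from 2.10% over 3.68%, 12.3% and 23.8% to 35.3%. Exon-sharing sums gave medians of 0.14, 0.26, 0.42, 0.97 and 1.71 over the same steps. As a description over all genes, with a shared annotation behind each pair of values and fewer counts in the treated SCR libraries (3842532 and 3739443), Pearson's r between the genotypes' changes was 0.19 over 14348 intronic and 0.39 over 6036 exon-sharing sums.

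**Figure D4:**
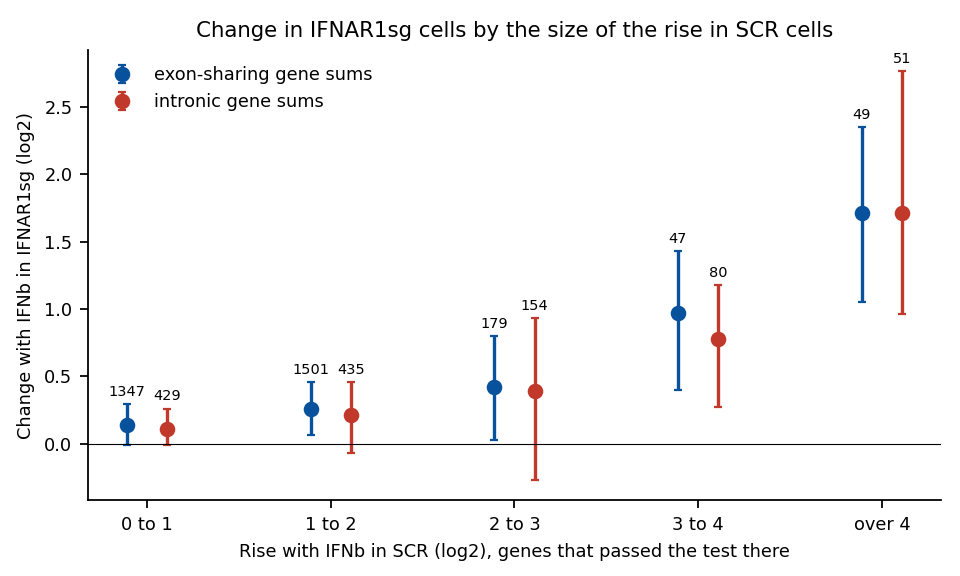
Median change with interferon beta in IFNAR1sg cells (log2, vertical) of genes that rose in SCR cells, by the size of that rise (horizontal), with bars from the lower to the upper quartile over genes and the number of genes above each. Medians climb from 0.11 and 0.14 in the lowest step to 1.71 in the highest for both kinds of sum.

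On a linear scale the gain in IFNAR1sg cells was a minor part of the gain in SCR cells. The share, the rise in mean CPM in IFNAR1sg cells as a percent of that in SCR cells, was taken for genes that rose by at least 2 (log2) in SCR cells. Its median was 18.1% over the intronic sums of 53 interferon-stimulated genes (quartiles 11% and 26%) and 13.7% over the exon-sharing sums of 39 (10.6% and 16.5%). Over all genes past that limit the medians were 8.49% (285 intronic) and 10.0% (275 exon-sharing). Members differed widely. In intronic reads IFI44L kept 44.0%, PLSCR1 40.7%, TRIM14 26.0%, RMI2 12.8%, TRIM5 5.79% and GBP1, a guanylate-binding GTPase, 3.25%. In exon-sharing reads USP18 kept 48.0%, MX1 19.7%, IFI6 11% and OASL 7.36%. The other kind of sum gave other shares for the same genes. In exon-sharing reads IFI44L kept 21.7%, PLSCR1 26.6% and RMI2 15%, and in intronic reads MX1 kept 28.1%, IFI6 30.4% and OASL 18.4%. USP18 kept 19.8% in intronic reads, and its exon-sharing change ran from 1.18 to 2.77 on omission of single libraries. HERC6, a ubiquitin ligase, rose by 1.34 ± 0.22 in intronic reads of IFNAR1sg cells and by 1.24 in those of SCR cells, and the difference of -0.10 ± 0.31 did not pass (adjusted p = 0.851). In exon-sharing reads, at 1.42 CPM or less in each IFNAR1sg library, HERC6 changed by 2.06 ± 0.98 in IFNAR1sg cells (adjusted p = 0.283) and by 4.96 in SCR cells.

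ISG15, the ubiquitin-like modifier often used as a mark of interferon action, did not pass in IFNAR1sg cells. Its exon-sharing regions had 3 and 3 reads in DMSO and 11 and 12 with interferon beta, a change of 1.71 ± 0.69 (adjusted p = 0.184). Its intronic sums had 32 and 54 reads and then 59 and 68, a change of 0.39 ± 0.26. In SCR cells these changes were 5.14 and 2.34, and they exceeded those of IFNAR1sg cells by 3.43 and 1.95. Other listed genes without a call in intronic sums included TNFSF10 (-1.38 ± 0.87) and IFITM2 (-0.20 ± 0.57), both at under 3 CPM in each IFNAR1sg library, and NT5C3A (-0.18 ± 0.15), which rose by 1.59 in SCR cells. In exon-sharing reads NT5C3A was under 1 CPM in each IFNAR1sg library and changed by 1.0 ± 1.12 (adjusted p = 0.727).

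Regions outside the sense strand of genes carried the response too. Regions at interferon loci rose in 142 of 740 cases (19.2%), with 0 falls, against 0.393% of regions elsewhere. Of the 142, 56 were exon-sharing and 44 intronic, which lie on a gene's own strand. Outside that strand, 33 of 112 antisense regions at these loci rose (29.5%), against 1.19% of antisense regions elsewhere. Intergenic regions rose in 9 of 51 cases (17.6%), against 0.137% elsewhere. By class, 213 of 15213 antisense regions rose, 167 of 9630 exon-sharing, 83 of 51774 intronic and 26 of 12494 intergenic. Of the 213 antisense regions 210 covered an exon of the other strand, as did 13208 of all 15213 tested. Read-through of the strand label from abundant sense RNA was not tested.

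The region opposite OAS1, OAS2 and OAS3, chr12:112908678-113014032 on the minus strand, which holds the antisense RNA gene ENSG00000257452, stood at 88.0 and 92.4 CPM in DMSO and 501 and 396 CPM with interferon beta (2.31 ± 0.14). Opposite MX2, chr21:41361814-41410216 on the minus strand went from 2.45 and 2.07 to 35.1 and 21.1 CPM (3.64 ± 0.27), and opposite MX1, chr21:41445995-41462255 on the minus strand went from 2.67 and 2.39 to 33.0 and 24.3 CPM (3.50 ± 0.27). In each of these regions both treated libraries were several-fold above both controls. Beyond the ends of genes, chr21:41459653-41462274 on the plus strand, 439 bases past MX1, went from 12 and 15.9 to 65.5 and 63.9 CPM (2.19 ± 0.18). The stretch chr9:32384578-32454991 on the minus strand, 714 bases past RIGI and opposite ACO1, went from 39.1 and 36.2 to 139 and 126 CPM (1.82 ± 0.15). The strongest intronic region, chr16:11318581-11323460 in RMI2, holds copies of MIRb, AluJr, AluSx1, MER1A, FLAM_C, MIRc and MLT1C and went from 15.1 and 18.2 to 80.5 and 93.3 CPM (2.37 ± 0.17).

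Few repeat groups were called. Of 1787 repeat subfamilies summed over regions that name 1 repeat, edgeR called 0 higher (0%) and 1 lower (0.056%) in IFNAR1sg cells, with 52 higher and 93 lower at an unadjusted p under 0.05 and 0 and 0 called by DESeq2. The subfamily called lower was the simple repeat (TTTTATT)n, at 49.4 and 48.4 CPM in DMSO and 26.1 and 32.3 CPM with treatment (-0.75 ± 0.16). It lost its call without either DMSO library or without the first treated library. Of 55 repeat families 1 was called lower (1.82%), the centromeric family centr, at 171 and 168 CPM in DMSO and 134 and 138 CPM with treatment (-0.31 ± 0.08, adjusted p = 0.0173), and it fell by 0.64 on the log2 scale in SCR cells. It was examined after its value was seen, and its call was lost on omission of any 1 of the 4 IFNAR1sg libraries (-0.27 to -0.31) and without the filter (-0.22). In SCR cells 121 subfamilies rose (6.77%) and 660 fell (36.9%).

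Of 93 intronic sums that fell in IFNAR1sg cells 79 (84.9%) also fell in SCR cells, 1.40% of the 5643 that fell there (39.3% of all tested), and for 59 of the 79 the fall was larger in SCR cells. Of 33 exon-sharing sums that fell 21 (63.6%) also fell in SCR cells, 6.77% of 310 (5.14% of all tested). The smallest p belonged to DUXAP10, a processed pseudogene expressed as a long noncoding RNA, at 771 and 770 CPM in DMSO and 370 and 411 CPM with interferon beta (-0.98 ± 0.09, adjusted p = 5.90e-18). In SCR cells it fell by 2.39 on the log2 scale, to 164 and 186 CPM. Its relatives DUXAP9 (-0.73 ± 0.09) and DUXAP8 (-0.84 ± 0.09) fell too, and reads may be shared among these near-identical copies. LINC02211 went from 841 and 835 to 492 and 534 CPM (-0.71 ± 0.08). ENSA, an inhibitor of the phosphatase PP2A in mitosis, went from 310 and 369 to 193 and 208 CPM (-0.76 ± 0.10), and PUM3, a nucleolar RNA-binding protein, from 1500 and 1420 to 909 and 1050 CPM (-0.58 ± 0.08).

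Some falls were not shared with SCR cells. CEACAM6, an epithelial adhesion molecule, fell in exon-sharing reads from 245 and 248 to 164 and 163 CPM (-0.60 ± 0.12) and rose by 0.49 in SCR cells, a difference of 1.08 ± 0.17 (adjusted p = 1.35e-05). EIF3A, a subunit of a translation initiation factor, fell from 473 and 502 to 317 and 323 CPM (-0.61 ± 0.12), with -0.18 in SCR cells and a difference of 0.43 (adjusted p = 0.0481). Over all exon-sharing sums the median SCR change was 0.74 and the median difference 0.57, with 29.7% called in this direction. The difference of EIF3A and the SCR changes of both genes thus lay below the medians of all such sums. The mitochondrial genome was lower on both strands, with chrM:0-16569 on the minus strand at 2950 and 3900 CPM in DMSO and 1970 and 1910 CPM with treatment (-0.82 ± 0.11), and chrM:2746-16569 on the plus strand at 6610 and 6830 and then 4560 and 4660 CPM (-0.54 ± 0.10). In SCR cells the minus strand fell too (-0.85), while the plus strand rose (0.47), a difference of 1.02 (adjusted p = 1.38e-07). Without the filter on low counts neither strand passed in IFNAR1sg cells (-0.72 and -0.45, adjusted p = 1 for both). TENM2, a synaptic adhesion molecule, fell from 6.45 and 9.24 to 1.26 and 1.02 CPM (-2.78 ± 0.40) and rose by 1.57 in SCR cells, a difference of 4.35 (adjusted p = 3.56e-10). Before treatment its level in IFNAR1sg cells was above that in SCR cells by 1.67 (adjusted p = 0.0105). NTM, a neural adhesion molecule, fell by 2.79 on the log2 scale, but its DMSO libraries stood at 2.67 and 24.5 CPM, and without the second of them the change was -0.29 (adjusted p = 0.987).

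**Figure D5:**
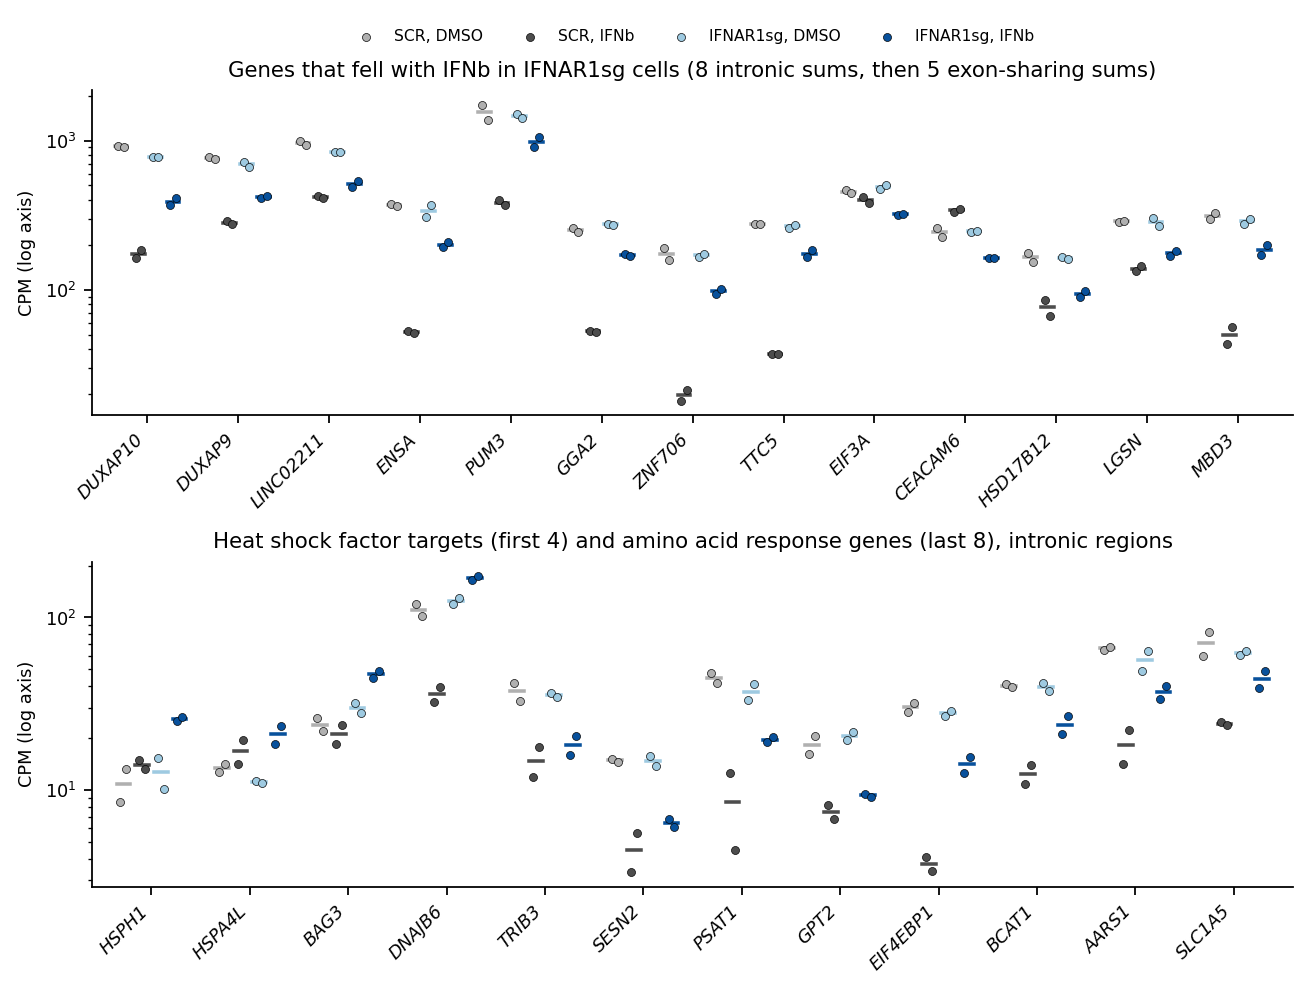
Levels in CPM (log axis) of genes that fell with interferon beta in IFNAR1sg cells (top, 8 intronic and 5 exon-sharing sums) and of heat shock and amino acid response genes (bottom, intronic sums) in the 8 libraries, with bars at the mean of 2. DUXAP10 is at 370 and 411 CPM in treated IFNAR1sg cells, between its DMSO level (771 and 770) and treated SCR cells (164 and 186).

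The genes that rose in IFNAR1sg cells and not in SCR cells numbered 12 by intronic sums, and they were looked at after their values were seen: BAG3, C3orf49, CENPA, DEDD2, DNAJB6, ENSG00000246477, HSPA4L, HSPH1, RABL3, RAP2C-AS1, SNX3 and TONSL. For 7 of the 12 the SCR change lay below that in IFNAR1sg cells by the test of the difference. Over all intronic sums 4153 of 14348 (28.9%) were called in that direction. The 12 genes were picked for a rise in IFNAR1sg cells alone, so the count of 7 is no separate support. BAG3, HSPA4L, HSPH1 and DNAJB6 encode chaperones or their partners. HSPH1 went from 15.3 and 10.2 to 25 and 26.5 CPM (1.04 ± 0.22), and without the second DMSO library it did not pass (0.78, adjusted p = 0.337). HSPA4L changed by 0.92 ± 0.22, BAG3 by 0.65 ± 0.17 and DNAJB6 by 0.44 ± 0.11, and each lost its call on omission of the second treated library (0.77, 0.60 and 0.43) or the second DMSO library (0.93, 0.58 and 0.54). DNAJB6 also lost it without the first DMSO library (0.41). With exon-sharing regions added, the change of HSPH1 was 0.17 (adjusted p = 0.677). Of 12 heat shock factor targets measured by intronic sums these 4 rose and 0 fell, beside rises in 0.648% of all intronic sums. The group was put together after values were seen, so this count only describes it and is no support. By exon-sharing sums 2 of 11 rose in IFNAR1sg cells and 10 of 11 in SCR cells. By the test of the difference 7 of the 11 changes were larger in SCR cells. Over all exon-sharing sums 3.26% rose in IFNAR1sg cells and 51.7% in SCR cells, and 29.7% changed more upwards in SCR cells.

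Genes of the amino acid response were lower in intronic reads. Of 21 measured members, a group also put together after values were seen, 8 fell, 0 rose and 0 were positive. Over all intronic sums 0.648% fell, and the count of 8 only describes a group picked in this way. In 14 exon-sharing sums 1 fell and 7 were positive, beside falls in 0.547% of all such sums. TRIB3, a pseudokinase induced by ATF4, went from 36.7 and 34.6 to 15.9 and 20.7 CPM (-0.96 ± 0.19), and PSAT1, an enzyme of serine synthesis, from 33.1 and 41.3 to 19.0 and 20.2 CPM (-0.93 ± 0.19). GPT2, a transaminase, changed by -1.15 ± 0.23 and EIF4EBP1, a brake on translation, by -0.98 ± 0.21. Omitting single libraries ended each of these 4 calls at least once, with -0.75 for TRIB3 and -0.81 for EIF4EBP1 without the first treated library, and -0.72, -1.03 and -0.89 for PSAT1, GPT2 and EIF4EBP1 without the second DMSO library. With exon-sharing regions added, TRIB3 (-0.30, adjusted p = 0.478) and GPT2 (-0.39, adjusted p = 0.205) did not pass, while PSAT1 and EIF4EBP1 kept their calls. In SCR cells 17 of the 21 fell and 1 rose, beside falls in 39.3% and rises in 8.01% of all intronic sums.

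Promoters were compared by the share that hold the motif printed above. Among genes whose intronic sums rose in IFNAR1sg cells 19 of 63 with a promoter in the table held it (30.2%), against 84 of 691 that rose in SCR cells (12.2%) and 422 of 10072 tested (4.19%). Among genes that fell 1 of 69 held it (1.45%). By exon-sharing sums it was in 17 of 147 that rose in IFNAR1sg cells (11.6%), 118 of 2309 that rose in SCR cells (5.11%) and 181 of 4218 tested (4.29%). A match is a description of the letters and not of a bound site.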

How the data were processed

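The deposited table gives whole-number read counts for 5254113 stranded regions of GRCh38, of which 46.1% had 0 reads in all 12 libraries, with the region's repeats and annotation as the authors wrote them. Libraries were made with a stranded total RNA kit after J2 immunoprecipitation, per the labels' protocols. The submitters' processing notes list the tools STAR, featureCounts, HOMER, cutadapt, Trimmomatic and Trim Galore, with no version and no role. Reads that map to several places and near-identical copies can be split or lost in such counting, and coordinates are printed as in the table.

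Regions were assigned to GENCODE 29 genes by strand and summed as described in the report. Counts were tested with edgeR 4.0.16 (R 4.3.3; filterByExpr with minimum count 10, minimum total 15 and proportion 0.7; TMM; 1 coefficient per group over all 12 libraries, 6 residual degrees of freedom). No replicate block was used, because the replicate numbers do not pair the samples. Alternatives were DESeq2 1.42.0, other scalings, no filter, fewer libraries and each library left out. On simulated counts for the 14348 intronic sums, 56% of 100 genes changed by 1 (log2) and 89% of 100 changed by 2 were recovered, with 5.23% false calls. The simulation gave every gene the same dispersion and held no change in SCR cells, unlike these data. Its rates therefore describe the fit under those settings only. The 2 libraries of a group differed by more than sampling noise (chi-square per degree of freedom 1.60 to 2.81).

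Genes named are the 15 higher and 15 lower of each kind with the smallest p, up to 4 of each list, the 20 strongest rises in SCR cells, and IFNAR1, IFNB1, ISG15 and CXCL10. Genes outside this rule are those of the post hoc groups, the lists' called or uncalled examples and regions past genes, chosen after their values were seen. The members and lists were chosen with earlier results of these data known. One named gene is not reported here.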

Additional observations from a re-analysis of the deposited data

Results flagged for a closer look

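The change with interferon beta differed between SCR and IFNAR1sg cells, by edgeR's test of the difference, for ISG15 and for nearly all of the 20 strongest rises of each kind in SCR cells. The exception was the intronic sum of MX2 (1.36 ± 1.13, adjusted p = 0.385). The values are the SCR change minus the IFNAR1sg change on the log2 scale, and all that passed were positive. In intronic sums the difference was over 3 for TRIM5 (3.72), GBP1P1 (3.78), CMPK2 (3.52), LIPA (3.19) and IFIT1 (3.10), and that of GBP1P1 did not pass without the first IFNAR1sg DMSO library (3.0, adjusted p = 0.121). It was between 2 and 3 for RMI2 (2.75), PATL1 (2.62), OAS1 (2.47), PML (2.33) and PSMB9 (2.18). It was under 2 for USP18 (1.97), ISG15 (1.95), IFIH1 (1.93), DDX60L (1.91), MX1 (1.87), OAS3 (1.43), CHROMR (1.42), TRIM14 (1.37) and RIGI (1.19). RIGI and TRIM14 thus lay lower in this order than TRIM5, the restriction factor, and CMPK2, the nucleotide kinase.

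In exon-sharing sums the difference was over 3 for GBP1P1 (3.45), ISG15 (3.43), RIGI (3.22) and OASL (3.05). It was between 2.5 and 3 for OAS2 (2.98), TRIM38 (2.95), LIPA (2.94), IFI16 (2.74), MIA3 (2.69), IFI44 (2.61), RMI2 (2.61) and APOL2 (2.51). It was lower for PARP12 (2.41), the antisense RNA gene ENSG00000257452 (2.38), IFI44L (2.31), IFI6 (2.27), DDX60L (2.16), DTX3L (2.07), MX1 (2.06) and PARP9 (1.91). The rise of MIA3, a collagen export receptor, in IFNAR1sg cells (0.55 ± 0.15) lost its call under 8 settings, among them omission of each single IFNAR1sg library. The intronic rise of PATL1, an mRNA decay factor (0.76 ± 0.18), lost its call under 2 settings, with 0.50 without the second DMSO library and 0.64 without the first treated library.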

How the results depend on the processing

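Of 2192 values of single features recomputed for interferon beta in IFNAR1sg cells (180 features under the alternatives), 1997 kept direction and call, 147 lost the call, 38 gained it and 10 changed direction. For the difference between the genotypes the counts were 577 of 580 kept, 1 lost, 1 gained and 1 reversed. The replicate numbers did not pair the samples (correlation of same-numbered deviations 0.01 over 89111 regions). With the number as a replicate block, 738 regions rose and 188 fell, 361 exon-sharing sums rose and 64 fell, 3 repeat subfamilies rose and 3 fell, and 102 intronic sums rose and 106 fell. The cause was not tested for any shift below.

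Leaving out 1 library gave 180 to 702 risen and 18 to 83 fallen regions, 55 to 92 and 22 to 84 intronic sums, 70 to 257 and 6 to 25 exon-sharing sums, and 0 to 2 and 0 to 1 repeat subfamilies. The difference between genotypes then gave 2643 to 3943 (SCR above) and 2848 to 5080 regions, 454 to 556 and 3499 to 4125 intronic sums, and 1275 to 1748 and 102 to 161 exon-sharing sums. Without filter, where more features are tested, 232 regions rose and 4 fell, 35 intronic sums fell, 398 exon-sharing sums rose and 21 fell, and 2 and 0 repeats were called. With the 4 IFNAR1sg libraries alone 179 intronic sums fell, 333 exon-sharing sums rose and 68 fell, and 3 repeats rose and 4 fell. Without both SCR interferon beta libraries 1 repeat rose and 2 fell. Without TMM factors 183 regions, 190 intronic sums, 57 exon-sharing sums and 3 repeats fell. With factors from the sums themselves, chosen after seeing the data, 92 exon-sharing sums rose and 87 fell, and 1 repeat rose and 0 fell. DESeq2's Wald test called 0 repeats lower. With exon-sharing regions added, 228 intronic sums rose.

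For the difference between genotypes, no TMM factors gave 1777 and 12258 regions (main 4553 and 6294), 303 and 6373 intronic sums, and 564 and 283 exon-sharing sums. No filter gave 446 and 4053 regions, 277 intronic sums in the direction of SCR, and 511 and 224 exon-sharing sums. Factors from the sums gave 1524 and 1745 intronic and 287 and 396 exon-sharing sums, exon-sharing regions added gave 1663 intronic sums, and the Wald test gave 2469 regions against SCR.

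Directions changed for SUB1 with exon-sharing regions added (0.12, main -1.15), MDM2 likewise (0.09), and JAK1 without filter (0.02 intronic, 0.08 exon-sharing). Leaving out 1 library turned JAK2 intronic sums (-0.39 to 0.03, positive without DMSO library 2), JAK1 intronic sums (-0.17 to 0.07, positive without treated library 1), JAK1 exon-sharing sums (-0.14 to 0.18, positive without DMSO library 1 or treated library 1), IFNAR1 exon-sharing sums (-0.46 to 0.22, positive without DMSO library 1 or treated library 2), and the genotype difference of MX2 intronic sums (-2.18 without DMSO library 2, otherwise up to 2.08). Of these only SUB1 was called with all libraries. Totals of 3739443 to 7430687 counts over 12 libraries, 2 a group, limit the precision.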

Other observations

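Genes outside the lists were also higher with interferon beta in IFNAR1sg cells, and the examples here were chosen after their values were seen. NRIR, a long noncoding RNA beside CMPK2, had intronic reads of 1.11 and 1.91 CPM in DMSO and 11.8 and 12.4 CPM with interferon beta, a change of 2.93 ± 0.34 by edgeR's quasi-likelihood test (adjusted p = 1.49e-11), against 5.24 in SCR cells. TRANK1, a large repeat-containing protein, went from 2.0 and 2.39 to 8.53 and 10.4 CPM in exon-sharing reads (2.07 ± 0.30) and by 1.45 ± 0.28 in intronic reads. NAPA, an attachment protein of vesicle fusion, went from 8.89 and 10.2 to 25.3 and 26.3 CPM in exon-sharing reads (1.42 ± 0.21). For each of these 3 genes both treated libraries were above both controls, and no omission of a library ended the call.

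MLKL, the pore-forming effector of necroptosis, had exon-sharing reads of 65.1 and 52.2 CPM in DMSO and 97.8 and 89.5 CPM with treatment (0.68 ± 0.14, adjusted p = 0.00162), and the SCR change of 2.88 was larger by 2.20. Without the second DMSO library its change was 0.56 (adjusted p = 0.0852). CHMP5, a subunit of the ESCRT-III membrane scission complex, changed by 0.64 ± 0.14, and did not pass without the first DMSO library (0.59, adjusted p = 0.0642) or the first treated library (0.56, adjusted p = 0.0996). PHF11, a zinc finger protein, changed by 1.09 ± 0.20, and did not pass without the second DMSO library (0.74, adjusted p = 0.0809). TMSB10, an actin-binding peptide (0.79 ± 0.14), and SQSTM1, an autophagy receptor (0.56 ± 0.11), kept their calls on omission of each library. In intronic reads SQSTM1 changed by -0.14 in IFNAR1sg cells and by -1.0 in SCR cells, opposite in sign to its exon-sharing changes of 0.56 and 0.96.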
